A study of Drosophila melanogaster with 6 samples.

Results

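The JAK/STAT pathway of the fruit fly is represented here by 10 genes, taken by symbol from the 16942 genes named in the deposited count files. They are the ligands upd1, upd2 and upd3, the receptors dome and et, the kinase hop, the transcription factor Stat92E, and the inhibitors Socs36E, Su(var)2-10 and Ptp61F. Transcripts came from Drosophila melanogaster males, strain Dahomey and genotype wild type, all of which had been kept with rival males. Larvae were raised at 100 per vial on SYA, a sugar and yeast medium, and males were held 10 per vial after eclosion. At 1 day of age each male was moved to a vial of its own for 5 days. Flies were frozen in liquid nitrogen at 1 fixed time of day and cut into abdomen or head with thorax. The 3 pools were abdomen after 2 h with rivals, head-thorax after 26 h and head-thorax after 2 h, each made from 40 male body parts. No pool of males kept without rivals was analysed here. Each pool was divided into 2 libraries, called split library 1 and 2, which were run on different lanes of 1 flow cell. The series asked what such splitting does to measured transcript levels.

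In this pathway a secreted Unpaired ligand binds the receptor Domeless and thereby activates the kinase Hopscotch, which phosphorylates Stat92E so that it enters the nucleus and switches on target genes. Socs36E is such a target and its protein damps the pathway, which forms a feedback loop. In adult flies the pathway is known for maintaining stem cells in the testis, where the hub cells secrete upd1, for renewal of the gut after damage, and for the response of the fat body and blood cells to infection and stress.

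Total counts ranged from 21070598 to 34217543 per library. Transcripts of the mitochondrial genome took 7.46% to 8.04% of counts in abdomen, 21.6% to 22.0% in 26 h head-thorax and 17.3% to 17.9% in 2 h head-thorax. The body parts carried their defining markers. The 6 genes of the male reproductive tract summed to 6675 to 6727 CPM (counts scaled to equal effective library size) in abdomen, against 14.5 to 19.6 CPM in 26 h head-thorax and 6.66 to 9.39 CPM in 2 h head-thorax. The 5 genes of eye and neurons summed to 33.7 to 33.9 CPM in abdomen and to 8450 to 9107 CPM in head-thorax. Because there was 1 pool per group, the spread below is that between split libraries, and every p-value compares these pools, not body parts or times in general. In bulk RNA, fewer cells of a type and less RNA per cell cannot be told apart.

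To compare genes, levels are given per kilobase of annotated exon. By that measure Stat92E was the most abundant component in every pool and the ligands were the rarest. Stat92E had 27.6 ± 0.114 CPM in abdomen, 52.2 ± 0.573 in 26 h head-thorax and 53.6 ± 0.484 in 2 h head-thorax (SD, n = 2 split libraries each). Ptp61F came next with 24.3 ± 0.332, 11.9 ± 0.367 and 11.6 ± 0.212 CPM per kilobase in the same order of pools, but other genes with reads lie inside its span, as described further on. The next 5 genes lay close together. In abdomen, the order per kilobase was Su(var)2-10 at 7.84 ± 0.144, dome at 5.43 ± 0.610, hop at 4.11 ± 0.0068, Socs36E at 3.26 ± 0.233 and et at 2.90 ± 0.0336 CPM. In 26 h head-thorax, Su(var)2-10 at 6.07 ± 0.183 and Socs36E at 6.07 ± 0.0367 CPM per kilobase did not differ beyond their spread, nor did hop at 5.14 ± 0.0588 and dome at 5.05 ± 0.0510, and et followed at 3.33 ± 0.380. In 2 h head-thorax, Su(var)2-10 had 6.89 ± 0.122 and Socs36E 6.10 ± 0.230 CPM per kilobase, while dome at 5.61 ± 0.326, et at 5.07 ± 0.463 and hop at 4.89 ± 0.0624 were not apart from their neighbours beyond that spread. The highest ligand level was that of upd1 in abdomen, at 1.43 ± 0.0922 CPM per kilobase. Every ligand had less than 0.2 CPM per kilobase in the other cases. The counts appear to cover whole genes with their introns, as described further on. A level per kilobase of exon is then an upper estimate where introns carry reads, and the order of genes depends on this choice. Per kilobase of whole gene span, Stat92E stayed first in every pool. In abdomen upd1, at 1.14 CPM per kilobase of span, then stood above Ptp61F at 1.11 and Socs36E at 0.832. In 26 h head-thorax, Su(var)2-10 had 5.21 and Socs36E 1.55 CPM per kilobase of span.

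**Figure D1:**
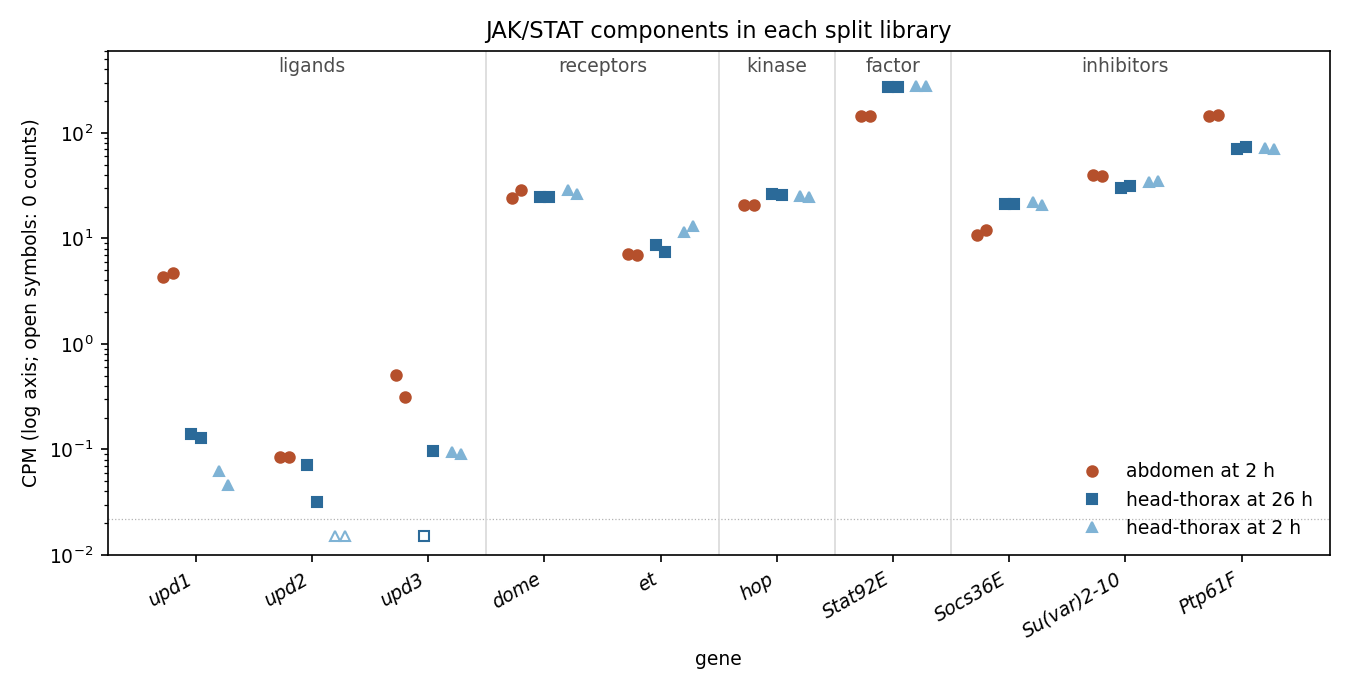
Level of the 10 JAK/STAT components in CPM (log axis) in each of the 6 split libraries, with abdomen at 2 h left of 26 h head-thorax and 2 h head-thorax. Each symbol is 1 library, open symbols at the foot of the plot are libraries with 0 counts, and vertical lines separate ligands, receptors, kinase, transcription factor and inhibitors. The ligands other than upd1 in abdomen lie near the bottom of the axis, and Stat92E is lower in abdomen than in both head-thorax pools.

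Among the ligands, upd1 was the only member of the family with more than 23 reads in any pool, and nearly all of them came from abdomen. The gene lies on chromosome X at 18305354 to 18309291, minus strand, in the BDGP6.54 annotation. It had 101 and 165 counts in abdomen (4.27 and 4.67 CPM), 4 and 4 counts in 26 h head-thorax, and 2 and 1 counts in 2 h head-thorax. The 2 abdomen libraries stood far above all 4 head-thorax libraries, where 0.141 and 0.128 CPM at 26 h lay above 0.0626 and 0.0456 CPM at 2 h. The upd1 values of the head-thorax pools rest on 8 against 3 counts, and their difference was not detectable at this depth. The summed reproductive tract markers had the same order of pools. Of these, 2 of the 6, betaTub85D (log2 ratio 1.49 ± 0.20) and Mst87F (1.73 ± 0.28), were called higher at 26 h than at 2 h. The markers Acp36DE (0.78 ± 0.16), SP (1.14 ± 0.63), Acp26Aa (0.09 ± 0.37) and Ebp (0.98 ± 0.14) were not called. Their part in the upd1 values was not tested. The ratio of pooled CPM between abdomen and 2 h head-thorax was 81.0, with an exact 95% counting interval of 27.4 to 395.

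The second ligand, upd3, known as the cytokine of blood cells and damaged gut, was rare throughout. It lies on chromosome X at 18277233 to 18284596, plus strand. It had 12 and 11 counts in abdomen, 0 and 3 in 26 h head-thorax, and 3 and 2 in 2 h head-thorax. Both abdomen libraries were above the others, and the head-thorax pools overlapped. The abdomen ratio was 4.20, with a 95% counting interval of 1.56 to 14.2. For upd2, a ligand known from the fat body, the counts were 2 and 3 in abdomen, 2 and 1 in 26 h head-thorax, and 0 and 0 in 2 h head-thorax. It lies on chromosome X at 18240654 to 18243284, minus strand, beside the other ligand genes. The 95% counting intervals of pooled CPM, 0.0275 to 0.198 in abdomen and 0 to 0.0685 in 2 h head-thorax, overlapped, so a difference was not detectable at this depth. Too few reads were present for a test of upd2. Intervals cover counting error only, because reads of PCR libraries without molecular identifiers are not independent molecules.

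The receptor genes are neighbours on chromosome X and lie on the minus strand, et at 19672312 to 19675891 and dome at 19676061 to 19683518. The signalling receptor dome was nearly even over the pools. It had 24.4 and 28.6 CPM in abdomen, 24.8 and 24.4 CPM in 26 h head-thorax, and 28.5 and 26.2 CPM in 2 h head-thorax. The abdomen libraries overlapped those of both head-thorax pools. The related receptor et (eye transformer), known as a negative regulator that blocks signalling through dome, was less even. It had 7.06 and 6.94 CPM in abdomen, 8.68 and 7.38 CPM in 26 h head-thorax, and 11.4 and 13.0 CPM in 2 h head-thorax. Head-thorax at 2 h was the highest pool, and no pool overlapped another. The annotated exons of et share 42 bases with those of Zw, a gene on the opposite strand. The counts appear not to separate strands, as described further on. Zw had 58.3 ± 1.67 CPM in abdomen, 30.2 ± 1.11 in 26 h head-thorax and 34.8 ± 0.597 in 2 h head-thorax (SD, n = 2).

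The JAK kinase hop, on chromosome X at 11360930 to 11368098, minus strand, varied little. It had 20.8 and 20.7 CPM in abdomen, 26.2 and 25.8 CPM in 26 h head-thorax, and 24.9 and 24.5 CPM in 2 h head-thorax. The abdomen libraries lay below all head-thorax libraries. Stat92E, on chromosome 3R at 20535323 to 20552311, minus strand, had 143.2 and 144.1 CPM in abdomen, 273.8 and 269.6 CPM in 26 h head-thorax, and 277.5 and 281.0 CPM in 2 h head-thorax. The abdomen libraries were far below the head-thorax libraries, while the head-thorax pools lay close together, 26 h below 2 h without overlap.

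The feedback inhibitor Socs36E, like Stat92E, was lowest in abdomen. It lies on chromosome 2L at 18138675 to 18152417, minus strand. It had 10.9 and 12.0 CPM in abdomen, 21.2 and 21.3 CPM in 26 h head-thorax, and 21.9 and 20.8 CPM in 2 h head-thorax. The abdomen libraries lay below all others, and the head-thorax pools overlapped. Su(var)2-10, the fly PIAS protein, a SUMO ligase that restrains Stat92E and also acts on chromatin, lies on chromosome 2R at 9116122 to 9122000, plus strand. It had 40.0 and 39.0 CPM in abdomen, 29.95 and 31.3 CPM in 26 h head-thorax, and 34.3 and 35.2 CPM in 2 h head-thorax. Abdomen was highest and the 26 h pool lowest, without overlap.

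The last inhibitor, the gene Ptp61F for a tyrosine phosphatase that acts against hop and Stat92E, lies on chromosome 3L at 1342493 to 1475257, minus strand. It had 145.8 and 148.6 CPM in abdomen, 70.8 and 73.9 CPM in 26 h head-thorax, and 71.4 and 69.6 CPM in 2 h head-thorax. Abdomen was highest without overlap, and the head-thorax pools overlapped. The span of 132765 bases holds only 6069 bases of Ptp61F exon, and the annotation places 19 other genes inside it, none of which overlaps a Ptp61F exon. Of these, 9 tRNA genes had 0 counts, and the other 10 had reads.

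How the deposited counts treat such nested genes was tested over the whole annotation. Among genes that lie wholly inside an intron of a host gene and hold at least 20 counts, the host had at least as many counts in 100% of pairs in every library. There were 148 to 437 such pairs per library on the same strand and 422 to 871 on opposite strands. This is the pattern that results when reads of a nested gene are also counted for its host, whichever strand they come from. Under such counting, each of the 10 nested genes with reads adds to the count deposited for Ptp61F.

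In abdomen the nested genes had most of the reads that the Ptp61F span holds. Their summed counts were 2489 and 3699 in abdomen, 805 and 936 in 26 h head-thorax, and 856 and 595 in 2 h head-thorax. These sums equalled 72.1% and 70.5% of the Ptp61F count in abdomen, 40.1% and 40.5% in 26 h head-thorax, and 37.5% and 39.0% in 2 h head-thorax. The share was nearly the same in both head-thorax pools and much larger in abdomen. CG9173 gave the largest part, with 1153 and 1745 counts in abdomen, 6 and 6 in 26 h head-thorax, and 3 and 3 in 2 h head-thorax. CG9168 had 511 and 701 counts in abdomen and at most 1 count in any head-thorax library. FucTD, named for a fucosyltransferase, had 365 and 587 counts in abdomen and at most 4 in any head-thorax library. The opposite pattern was seen for rho, which encodes the protease rhomboid that releases EGF receptor ligands. It had 42 and 59 counts in abdomen, 491 and 587 in 26 h head-thorax, and 541 and 382 in 2 h head-thorax.

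With the nested counts subtracted, Ptp61F had 40.6 and 43.9 CPM in abdomen, 42.4 and 44.0 CPM in 26 h head-thorax, and 44.6 and 42.4 CPM in 2 h head-thorax. All 3 pools then overlapped. Per kilobase of exon the remainder was 6.96 ± 0.374 CPM in abdomen, 7.12 ± 0.191 in 26 h head-thorax and 7.17 ± 0.253 in 2 h head-thorax, near the level of Su(var)2-10. The remainder still includes reads from Ptp61F introns, and the subtraction was chosen after the data had been seen.

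**Figure D2:**
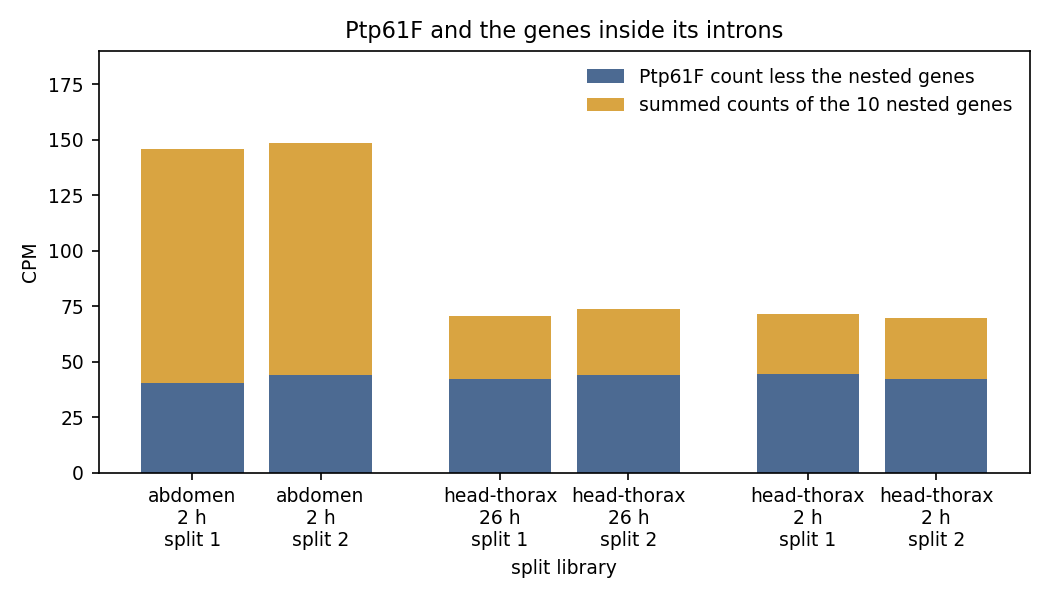
CPM of the count deposited for Ptp61F in each split library, drawn as stacked bars from 0 and divided into the reads of the 10 genes nested in its introns and the remainder. Pools run from abdomen at 2 h on the left to 26 h head-thorax and 2 h head-thorax. The nested part differs between body parts, and the remainder is 40.6 to 44.6 CPM in all 6 libraries.

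The first comparison set abdomen against head-thorax, both after 2 h with rivals. Of the 9 components with enough reads for edgeR's quasi-likelihood test, upd1, upd3 and Ptp61F were called higher in abdomen, none was called lower, and 6 were not called. A call required a Benjamini-Hochberg adjusted p under 0.05 together with a ratio of 2-fold or more. Over all 14694 genes tested, 35.6% were called higher and 21.7% lower, 57.3% in all, so body parts differed widely and the 3 of 9 called higher are close to that background. The median log2 ratio was -0.04 over the 9 components and 0.06 over all genes tested. By adjusted p alone, at any size of difference, 4 components were higher and 4 lower, and the same numbers hold at an unadjusted p under 0.05. By that rule 46.8% of all genes were higher and 43.6% lower, 90.4% in all.

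The fitted log2 ratio of upd1 was 6.23 ± 0.37 (SE), with an adjusted p of 5.41e-29, and that of upd3 was 2.02 ± 0.64, with an adjusted p of 0.00263. Both genes passed the filter on low counts only through their abdomen reads, so their calls had to come out higher there. The upd3 call rested on few reads. It was lost with DESeq2's Wald test (log2 ratio 2.27, adjusted p = 0.0649) and when abdomen split library 1 was left out (log2 ratio 1.70, adjusted p = 0.0681). For Ptp61F the log2 ratio was 1.06 ± 0.03, with an adjusted p of 5.35e-49. With the nested counts subtracted it became -0.04 ± 0.05, with an adjusted p of 0.418, which ended the call and turned the direction, and 2 components remained called higher.

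A further 4 components were lower in abdomen beyond the technical spread but short of the 2-fold limit. Stat92E had a log2 ratio of -0.96 ± 0.03 (adjusted p = 2.88e-51), which is 1.94-fold lower. The log2 ratio of Socs36E was -0.90 ± 0.07 (adjusted p = 8.99e-21), or 1.86-fold lower. The receptor et stood at -0.79 ± 0.10 (adjusted p = 3.75e-12) and hop at -0.25 ± 0.06 (adjusted p = 6.94e-05). The hop difference depended on the scaling, with a log2 ratio of -0.11 under DESeq2 size factors (adjusted p = 0.0754), -0.0462 under raw totals (adjusted p = 0.469) and -0.11 by DESeq2's Wald test (adjusted p = 0.204). In the other direction, Su(var)2-10 stood at 0.18 ± 0.05 (adjusted p = 0.00029). The ratio of dome, -0.04 ± 0.06 (adjusted p = 0.538), did not pass the threshold, and its sign changed with the scaling of the libraries, to 0.17 under raw totals (adjusted p = 0.00705). The median over all genes shifted by 0.14 on the log2 scale under DESeq2 size factors and by 0.21 under raw totals. Relative to such shifts, Stat92E remained lower, at -0.81 with DESeq2 size factors and -0.75 with raw totals.

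**Figure D3:**
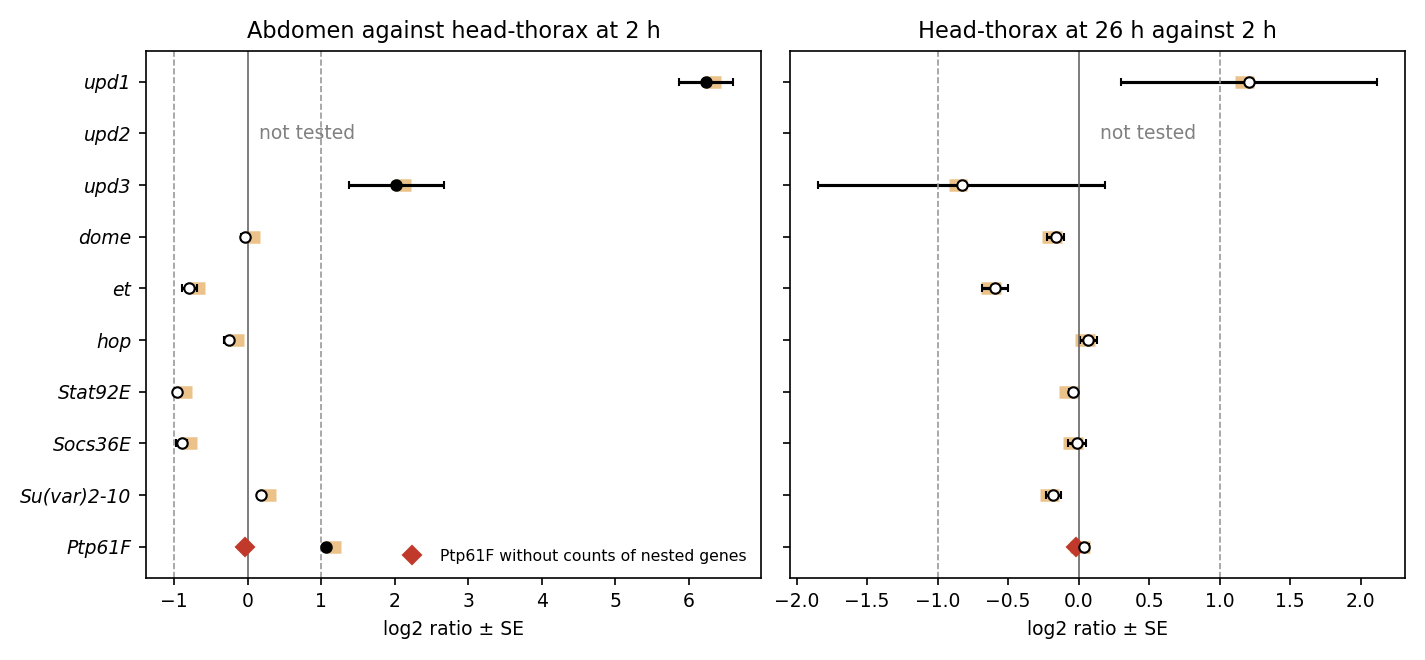
Fitted log2 ratio of each tested JAK/STAT component for abdomen against 2 h head-thorax (left panel) and 26 h head-thorax against 2 h (right panel, with its own axis range). Points are ratios with their standard error, filled points were called, orange bars give the range over TMM, DESeq2 size factors and raw totals, dashed lines mark 2-fold, and the red diamond is Ptp61F with nested counts subtracted. Ligands lie to the right in the left panel, Stat92E, Socs36E and et to the left of 0, and no point is filled in the right panel.

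The second comparison set 26 h with rivals against 2 h in head-thorax, and shares its 2 h libraries with the first. No component was called by edgeR in either direction, and none by DESeq2's Wald test. Over all genes tested, 6.21% were called higher and 1.50% lower, 7.70% in all. By adjusted p alone, and equally at an unadjusted p under 0.05, 3 of the 9 components were lower and none higher, beside 21.3% lower, 19.7% higher and 41.0% in either direction among all genes. The median log2 ratio was -0.04 over the components and 0 over all genes.

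The component with the largest difference past the adjusted p was et. It had 246 and 231 counts at 26 h and 365 and 285 at 2 h, and a log2 ratio of -0.59 ± 0.09 (adjusted p = 7.72e-08). That value is lower than those of all but 6.66% of the genes tested, and its neighbour Zw, which shares exon bases with it, had a log2 ratio of -0.20. Smaller differences were found for Su(var)2-10, at -0.18 ± 0.05 (adjusted p = 0.00243), and dome, at -0.16 ± 0.06 (adjusted p = 0.0217). Neither passed by DESeq2's Wald test, with an adjusted p of 0.115 for Su(var)2-10 and 0.377 for dome, and dome did not pass under DESeq2 size factors (adjusted p = 0.0942), nor without split library 1 of 2 h head-thorax (adjusted p = 0.398) or either 26 h library (adjusted p = 0.0816 and 0.16). Without 26 h split library 1, Su(var)2-10 had an adjusted p of 0.0574. The core signalling genes differed less, with log2 ratios of 0.07 ± 0.06 for hop (adjusted p = 0.351) and -0.04 ± 0.03 for Stat92E (adjusted p = 0.247, and 2.81e-05 at -0.14 under raw totals). Among the inhibitors, Socs36E stood at -0.01 ± 0.06 (adjusted p = 0.91) and Ptp61F at 0.04 ± 0.04 (adjusted p = 0.47).

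For the ligands, differences between times were not detectable at this depth. The ratio of pooled upd1 CPM at 26 h to that at 2 h was 2.41, with a 95% counting interval of 0.578 to 14.1, from 8 against 3 counts. For upd3 the ratio was 0.542, with an interval of 0.0842 to 2.79, from 3 against 5 counts. With 3 counts of upd2 at 26 h and 0 at 2 h, no fold is given.

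Other regulators of the pathway were described from a list of 13 genes, among them further SOCS genes, the SUMO conjugating enzyme gene lwr, and endosomal sorting genes that act on the receptor. All 13 were tested. Between abdomen and 2 h head-thorax none was called higher and 1 was called lower, beside 35.6% and 21.7% of all genes. By adjusted p alone 2 were higher and 9 lower, beside 46.8% higher and 43.6% lower among all genes. The same 2 and 9 hold at an unadjusted p under 0.05. DESeq2 called TSG101, a gene of the endosomal sorting machinery, higher at a log2 ratio of 1.00. The gene called lower was Cbl, which encodes a ubiquitin ligase for activated receptors. Cbl had 21.7 and 22.7 CPM in abdomen and 53.6 and 54.3 CPM in 2 h head-thorax, with no overlap, and a log2 ratio of -1.27 ± 0.05 (adjusted p = 2.48e-42). The median of the list was -0.18. At 26 h against 2 h edgeR and DESeq2 called none of the 13, beside 6.21% of all genes called higher and 1.50% lower. By adjusted p alone 2 were higher and 2 lower, beside 19.7% higher and 21.3% lower among all genes. At an unadjusted p under 0.05, 3 were higher and 2 lower, and the median was -0.07.

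Genes reported as outputs of the pathway included several that were called lower at 26 h. The list holds 19 genes, of which 16 were tested, and TotE, TotF and TotZ had at most 4 counts per pool. It was drawn up with earlier results of these data known, so it is not independent evidence of a direction. In head-thorax, 6 of the 16 were called lower at 26 h, beside 1.50% of all genes. None was called higher by edgeR or DESeq2. By adjusted p alone 2 were higher and 11 lower, beside 19.7% higher and 21.3% lower among all genes. The same 2 and 11 hold at an unadjusted p under 0.05. The median log2 ratio was -0.25. The 6 were Diedel and the Turandot genes TotA, TotB, TotC, TotM and TotX. Diedel is a small secreted protein of the immune response, and the Turandot genes encode secreted peptides made by the fat body under stress. Outside the Turandot family only Diedel was called, so the 6 calls do not describe the list as a whole.

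TotA, the most abundant, had 127 and 133 CPM at 26 h and 1225 and 1251 CPM at 2 h, and a log2 ratio of -3.25 ± 0.03. TotC had 30.02 and 30.6 CPM at 26 h and 561 and 557 CPM at 2 h, a log2 ratio of -4.20 ± 0.03. For both genes the times were far apart. TotM had 40 and 49 counts at 26 h and 1065 and 782 at 2 h, and Diedel had 11 and 9 counts at 26 h and 90 and 71 at 2 h. The fitted log2 ratios were -4.52 ± 0.10 for TotM and -3.14 ± 0.28 for Diedel. TotB was near the limit of detection, with 1 and 1 counts at 26 h and 30 and 21 at 2 h. It passed the filter only through its 2 h head-thorax reads, so its lower call here and in abdomen had to come out that way, and the counts of lower targets include it. TotX had 22.9 and 22.9 CPM at 26 h and 136 and 140.2 CPM at 2 h, and it lies inside the span of Grik, a gene on the opposite strand, without overlap of exons. Beside these, the feedback target Socs36E had 21.2 and 21.3 CPM at 26 h and 21.9 and 20.8 CPM at 2 h. The remaining 10 tested targets, vir-1, Tep2 and Tep4 among them, were not called.

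In abdomen, 10 of the 16 targets were called lower than in 2 h head-thorax and 1 higher, with a median log2 ratio of -1.15. The background was 21.7% lower and 35.6% higher. The 10 include slbo, with 3 and 4 counts in abdomen and 243 and 148 in 2 h head-thorax. It passed the filter on low counts only through its head-thorax reads, so its lower call had to come out that way. The same holds for TotB, as stated above, so the 10 cannot be set directly beside the background. TotA had 28.6 and 26.9 CPM in abdomen against the 1225 and 1251 CPM given above for 2 h head-thorax, a log2 ratio of -5.48 ± 0.04. TotC, TotX and TotB had log2 ratios of -6.36 ± 0.04, -3.07 ± 0.04 and -2.32 ± 0.42. The virus-induced gene vir-1 had 156 and 161 CPM in abdomen and 326 and 328 CPM in 2 h head-thorax. Its log2 ratio of -1.04 ± 0.03 passed the 2-fold limit narrowly and was -0.90 with DESeq2 size factors, which ended the call. By DESeq2's Wald test 8 targets were called lower and 1 higher, and vir-1 and zfh1 were not among the 8. In the main fit zfh1 had a log2 ratio of -1.03 ± 0.08, also close to the 2-fold limit. The gene called higher was Tep1, of the complement-like thioester proteins, with 19 and 37 counts in abdomen and 3 and 4 in 2 h head-thorax and a log2 ratio of 2.83 ± 0.47. Tep1 passed the filter on low counts only through its abdomen reads, so its call had to come out higher there.

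**Figure D4:**
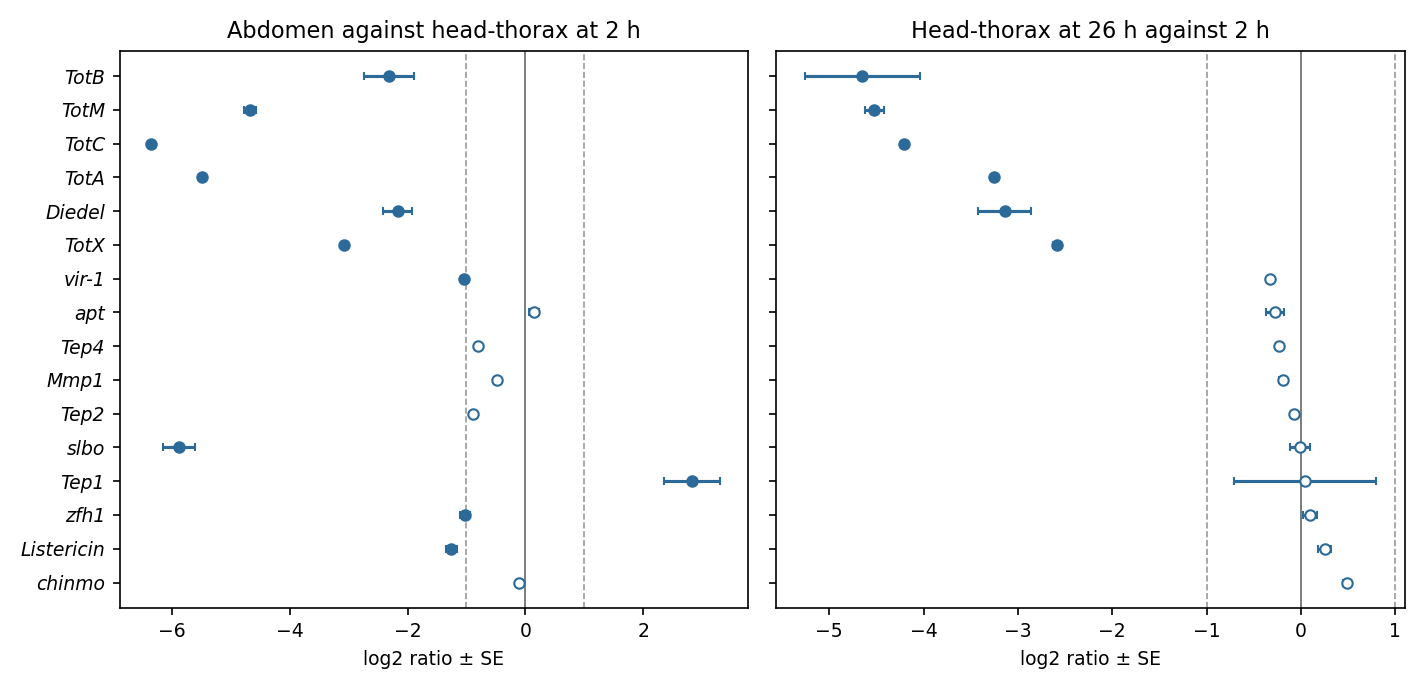
Fitted log2 ratio with standard error of the 16 tested genes reported as JAK/STAT targets, for abdomen against 2 h head-thorax (left panel) and 26 h head-thorax against 2 h (right panel), ordered by the ratio in the right panel. Filled points were called, and dashed lines mark 2-fold. The 5 Turandot genes and Diedel lie below -2 in both panels, and both comparisons share the head-thorax libraries at 2 h.

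Summed markers of other cells also differed between the pools, but not all in the same order. Blood cell markers were summed over 6 of 6 genes. They had 179 to 181 CPM in abdomen, 248 to 253 CPM in 26 h head-thorax and 340 to 342 CPM in 2 h head-thorax. This order of pools was shared by et, Stat92E, TotA and TotC, among others. Within the list NimC1 was called lower at 26 h (log2 ratio -1.32 ± 0.06), while Hml, at -0.33 ± 0.03, was not called. Fat body markers summed to 4189 to 4236 CPM in abdomen, 6594 to 6668 CPM in 26 h head-thorax and 5996 to 6065 CPM in 2 h head-thorax. The members of this list did not move together. Lsp2, a larval serum protein gene, had 3.51 and 3.06 CPM in abdomen, 370.1 and 379 CPM in 26 h head-thorax, and 974 and 968 CPM in 2 h head-thorax, and was called lower in abdomen (log2 ratio -8.23 ± 0.05) and at 26 h (-1.37 ± 0.03). In contrast, apolpp, which encodes the main lipoprotein, had a log2 ratio of 0.39 ± 0.03 at 26 h, and the fatty acid synthase gene FASN1 had 0.83 ± 0.03 in abdomen, both short of a call. Flight muscle markers summed to 673 to 703 CPM in abdomen, 1844 to 1855 CPM in 26 h head-thorax and 1707 to 1740 CPM in 2 h head-thorax. Midgut markers, with 3 of 5 genes matched, summed to 1776 to 1868 CPM in abdomen, 1475 to 1497 CPM in 26 h head-thorax and 1308 to 1338 CPM in 2 h head-thorax. For the testis niche and early germ cells, 4 of 5 genes were matched. The vas count may include reads of other genes, because overlaps were not looked up for markers. The sum of this list, mostly vas, was 128 to 133 CPM in abdomen. It was 144 to 146 CPM in 26 h head-thorax and 139.8 to 140.2 CPM in 2 h head-thorax. Within that list bam, which drives germ cell differentiation, had 58 and 80 counts in abdomen, 8 and 7 in 26 h head-thorax, and 9 and 5 in 2 h head-thorax. The gonad gene tj went the other way, with 18 and 30 counts in abdomen, 118 and 97 in 26 h head-thorax, and 124 and 94 in 2 h head-thorax, and was called lower in abdomen (log2 ratio -2.31 ± 0.21). The germ cell gap junction gene zpg had 12 and 23 counts in abdomen, 1 and 0 in 26 h head-thorax, and 0 and 0 in 2 h head-thorax. The part of these cell types in the values above was not tested.

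No component differed between the split libraries of a pool after adjustment for multiple tests. A two-sided exact binomial test of split library 1 against 2 was possible for 23 pairs of component and pool. None passed an adjusted p of 0.05 over all genes, and 1 had an unadjusted p under 0.05. That pair was dome in abdomen, where the libraries differed 1.17-fold (exact binomial p = 0.00229, adjusted p = 0.0945). Over all genes tested, 1.83% differed in abdomen, 0.459% in 26 h head-thorax and 0.638% in 2 h head-thorax. The largest ratio among the 23 was that of upd3 in abdomen, 1.63-fold from 12 and 11 counts (p = 0.288, exact test).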

How the data were processed

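Messenger RNA was sequenced as single-end reads of 50 nt from 3 pools of 40 male body parts, each divided into 2 libraries, per the labels' protocols. As deposited, the values are raw read counts, 1 whole number per FlyBase gene ID, and genes at 0 are not listed. What aligner, counter, build or annotation was used is not given in the sources used here. Symbols were found for 16735 of 16942 genes in Ensembl's BDGP6.54 annotation, whose positions are printed and were used for overlaps. Counts of nested genes and their hosts follow the pattern of counting over whole gene spans without strand.

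CPM values were computed from effective library sizes (TMM). Pools were compared with edgeR 4.0.16 in R 4.3.3 (quasi-likelihood test, filterByExpr, all 6 libraries in 1 fit, 3 residual degrees of freedom, technical coefficient of variation 1.63%), with Benjamini-Hochberg adjustment over 14694 genes. All printed adjusted p-values of pool comparisons are from that fit unless DESeq2 1.42.0 or another alternative is named beside them. A call needed an adjusted p under 0.05 and at least 2-fold. The p-values measure the spread between split libraries, which is technical. Split libraries were compared by an exact binomial test at a summed count of at least 10. Ratios resting on few counts have exact 95% counting intervals. The steps were tested on simulated counts.

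The components, the 13 other regulators, the 19 reported targets and the marker lists were chosen with earlier results of these data known. The text names every component, the called members of the other lists (where more than 6 were called, the 4 of highest and 2 of lowest mean CPM) and genes overlapping a component. Genes of the 10 inside Ptp61F, bam, zpg, tj, Lsp2 and other single genes were named after their values were seen. Alternatives covered scaling, DESeq2, the filter, the fold test, the libraries in the fit, a replicate block, the mitochondrial genome and each library left out.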

Additional observations from a re-analysis of the deposited data

How the results depend on the processing

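Of 582 recomputed values, 557 kept their direction and call or, for counts of genes or components, stayed within 1.5 times the reported count. Genes called at 26 h numbered 317 higher and 88 lower when the 2-fold limit was tested in the model, against 912 and 220, and 137 lower with DESeq2's Wald test. By adjusted p alone, 2895 genes were higher and 3123 lower at 26 h, against 3453 and 2542 with DESeq2 size factors and 1992 and 4692 with raw totals. Without 1 library, calls in abdomen were 5008 to 5454 higher and 3012 to 3251 lower, calls at 26 h were 702 to 887 higher and 180 to 202 lower, and components called higher in abdomen were 2 to 3. They were 2 with the Wald test, with only the 4 libraries compared, without the mitochondrial genome, without abdomen split library 1 and with nested counts subtracted. The sign of dome in abdomen turned to 0.11 with DESeq2 size factors, 0.17 with raw totals, 0.10 with the Wald test, 0.05 without abdomen split library 1 and 0.10 without head-thorax 2 h split library 1, in a range of -0.168 to 0.0978 without 1 library. At 26 h, hop was -0.0271 and Ptp61F -0.0610 with raw totals, and Ptp61F was -0.0152 with nested counts subtracted (-0.0387 in abdomen). Stat92E was 0.00403 with DESeq2 size factors and 0.00328 with the Wald test. Socs36E was 0.0292 with size factors, 0.0316 with the Wald test and 0.0322 without head-thorax 2 h split library 1, in a range of -0.0455 to 0.0322 without 1 library. For upd3 at 26 h, leaving out split library 1 or 2 of the 26 h pool gave 0.0444 or -4.46. In abdomen vir-1 was -0.90, -0.83, -0.90 and -0.98 with size factors, raw totals, the Wald test and without head-thorax 2 h split library 1, all without a call. The cause was not tested. Counting an overlap only in exons left 1 component overlapping another gene, against 3. With only the 4 libraries compared, or without the mitochondrial genome, upd3 did not pass the filter. A lone library was assumed to vary like the other pools. The split number as a replicate block gave 5222 higher and 3195 lower in abdomen, 891 higher and 190 lower at 26 h, and 3 and 0 components. Over 9684 genes, deviations of same-numbered libraries correlated at 0.0037 between abdomen and 26 h head-thorax and at 2.7e-05 between abdomen and 2 h head-thorax. Between the 2 head-thorax pools the correlation was 0.117. The main fit did not pair libraries by number, and whether the number carries a shared technical effect in head-thorax was not tested. With 1 pool per group, the spread between flies is unknown, and the ligands are limited by depth.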
